A study of Mus musculus with 12 samples.

Results

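The rows described here are 1462 assembled loci that are each represented by a single transcript in a table of long non-coding RNA counts from mouse brain. The rule for membership reads the identifiers and no counts. A row belongs to the set when its identifier starts with MSTRG and no other row shares its locus number, which is the identifier without its last number. The table has 48033 rows, of which 2436 are assembled transcripts of 1799 loci, and 337 of those loci have more than 1 row (974 transcripts). The other 45597 rows carry Ensembl identifiers. Counts came from 12 libraries of 7-month-old mice on a C57BL/6J background, with 3 libraries in each of 4 groups: hippocampus and cerebral cortex of WT (non-transgenic) mice and of 5 × FAD mice. 5 × FAD mice carry mutant human APP and PS1 transgenes with 5 familial Alzheimer's disease mutations, driven in neurons by the Thy1 promoter. Every group was stated to hold 2 females and 1 male, and both regions were taken from each mouse.

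Long non-coding RNAs are transcripts without a long open reading frame, and many are expressed at low levels and in particular tissues or brain regions. Identifiers of the MSTRG form are those that the assembler StringTie gives when it merges transcripts built from the reads of several libraries. A locus is then a stretch of overlapping assembled transcripts, and it need not match a known gene. In the identifier, the middle number is the locus and the last number is the transcript within it. Of the 1462 loci, 1118 (76.5%) had a transcript whose last number was 1 and 344 (23.5%) had a higher last number, up to 158, so that lower-numbered transcripts of those loci were not rows of the table. The table gives these rows no gene symbol, strand, length, position or sequence, so they are named by identifier, and their coding potential and genomic context were not analysed here.

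Library totals ranged from 3517967 to 5014389 counts. Marker lists followed the labelled region: the summed level of hippocampal markers averaged 111 CPM (counts scaled to a common library total) in the hippocampus and 37.3 CPM in the cortex, and that of cortical markers 55.8 and 106 CPM. Only 2 of 6 hippocampal markers and 4 of 6 cortical ones had rows, and nearly all of the hippocampal sum was Zbtb20, since Lct had 9 counts or fewer in each library. Sex-linked transcripts did not follow the stated composition of the groups. Counts of 4 Y-linked genes summed to 0 in the 4 libraries numbered 1 and 2 of 5 × FAD, in both regions, and to between 1074 and 1661 in the other 8 libraries. Xist had between 30468 and 46630 counts in those 4 libraries and between 4 and 25 in the others. All WT libraries and the 5 × FAD libraries numbered 3 thus had Y-linked counts, and genotype and sex-linked expression largely cannot be told apart in these samples. Regional results are therefore also given for the 8 libraries with Y-linked counts. Of 5 × FAD these hold only number 3 in each region, so genotype calls from them are not given. The 3 libraries of a group are stated to be 3 mice, and p-values measure the spread between these samples.

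The loci with 1 row were more abundant than Ensembl rows and more steadily detected than both other sets. Assembled rows are built from reads, whereas Ensembl rows come from an annotation, and 7951 of those 45597 were at 0 in all libraries. How far this origin sets the differences from Ensembl rows was not tested. Per library, their summed share of all counts was between 17.5% and 21.3%. Their median level, averaged over the 12 libraries, was 61.0 CPM, against 70.2 CPM for transcripts of loci with more rows and 1.58 CPM for Ensembl rows. CPM is not corrected for transcript length, which the table does not give, so these values order counts and not molecules. The lower and upper quartiles of the loci were 24.3 and 151 CPM, 520 loci were above 100 CPM, 11 were above 1000 CPM and 7 were under 1 CPM. The 10 most abundant loci held 7.84% of the summed level of the set and the top 100 held 37.5%, so no few loci dominated it.

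At least 3 counts were taken as detection, which corresponds to between 0.598 and 0.853 CPM depending on the library. By this measure 1345 of the 1462 loci (92.0%) were detected in all 12 libraries, and every locus was detected in at least 1. Detection in all 12 held for 504 of 974 transcripts of loci with more rows (51.7%) and for 42.5% of Ensembl rows. Of the Ensembl rows, 11261 were detected in no library, which reads that build a row largely exclude for assembled rows. Among the loci with 1 row, 16 were detected in a single library, and 15 of these had an identifier ending in 2 or more. Detection in all libraries was 94.5% for identifiers ending in 1 and 84.0% for those with a higher last number. The spread between replicates differed between the sets as well. The median biological coefficient of variation in the fit of all libraries was 0.266 for these loci, 0.479 for transcripts of loci with more rows and 0.328 for Ensembl rows. Among rows of similar level, with a log2 CPM between 4 and 8, these medians were 0.260, 0.532 and 0.289, so that the gap to Ensembl rows was smaller there.

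**Figure D1:**
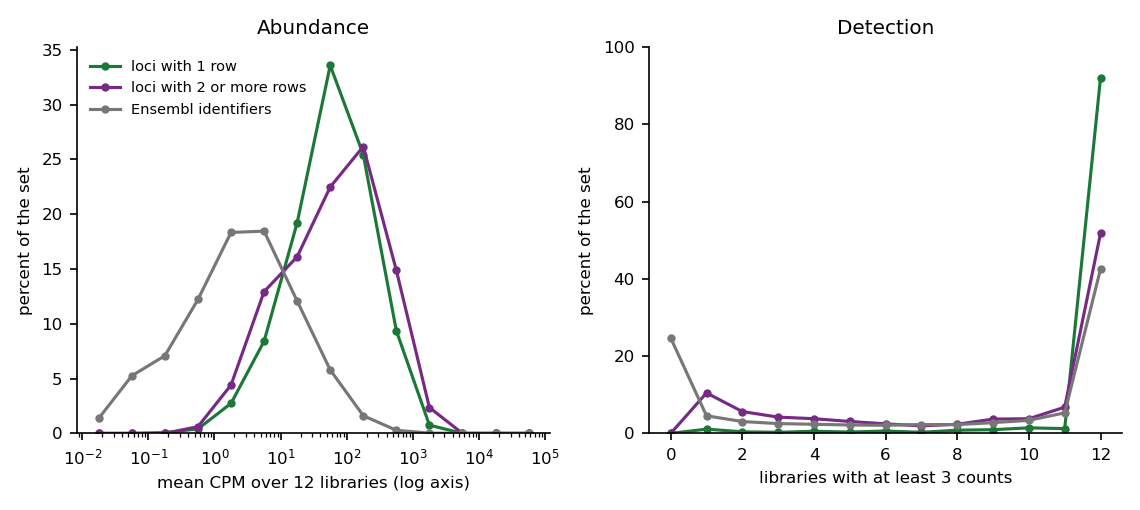
Left, percent of each set of rows by mean CPM over 12 libraries, in steps of 0.5 log10 units on a log axis; right, percent of each set by the number of libraries with at least 3 counts. Of the loci with 1 row (green), 92.0% were detected in all 12 libraries, against 51.7% of transcripts of loci with more rows (purple) and 42.5% of Ensembl rows (grey).

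The most abundant locus, MSTRG.6413.1, averaged 2415 CPM. It had 10631, 12712 and 9918 counts in the WT hippocampus, 6266, 8634 and 9576 in the 5 × FAD hippocampus, 9805, 12542 and 9578 in the WT cortex, and 11632, 10869 and 11729 in the 5 × FAD cortex. The groups overlapped, and neither the region contrast (adjusted p = 0.261) nor a genotype contrast passed the test. MSTRG.15975.10 followed at 2172 CPM. MSTRG.11879.1, at 1964 CPM, and MSTRG.11877.2, at 1440 CPM, were the loci of the top 10 that differed between regions. MSTRG.11879.1 had between 8322 and 15977 counts in the hippocampus and between 4698 and 6234 in the cortex, and the 2 regions did not overlap. Its log2 fold change was 1.03 (SE 0.108, adjusted p = 0.000904, edgeR quasi-likelihood test), and that of MSTRG.11877.2 was 1.07 (SE 0.107, adjusted p = 0.000729). In the 8 libraries with Y-linked counts these were 1.02 (adjusted p = 0.0794) and 1.10 (adjusted p = 0.0695). The rest of the top 10, namely MSTRG.6757.1, MSTRG.8966.1, MSTRG.5023.3, MSTRG.16092.5, MSTRG.5498.5 and MSTRG.13717.2, ranged from 1598 down to 1023 CPM. None of these passed the test for region, with log2 values from -0.25 for MSTRG.8966.1 to 0.44 for MSTRG.13717.2. The latter was called only when 5 × FAD hippocampus 3 was left out (log2 0.54, adjusted p = 0.0153).

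The share of counts taken by the set was compared between groups of libraries. It was 19.9%, 21.3% and 19.8% in the WT hippocampus and 18.0%, 19.4% and 19.1% in the 5 × FAD hippocampus. Each WT hippocampus library was thus above each 5 × FAD one, with means of 20.3% ± 0.835 and 18.8% ± 0.709 (SD, n = 3 each), and the difference of -1.49 percentage points gave p = 0.1 in a two-sided exact permutation test, the smallest value that 3 against 3 allows. In the cortex the shares were 17.5%, 18.4% and 20.2% in WT and 17.7%, 19.2% and 18.4% in 5 × FAD. The cortex groups overlapped, with a difference of -0.255 points (p = 0.9, exact permutation test). Between regions the share was 19.6% ± 1.07 in the hippocampus and 18.6% ± 1.01 in the cortex (SD, n = 6 each), with p = 0.128 in the exact permutation test. Without WT cortex 3 that difference was 1.33 points (p = 0.039, exact permutation test).

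The number of loci detected per library varied little. It lay between 1399 and 1409 in the WT hippocampus, 1407 and 1421 in the 5 × FAD hippocampus, 1402 and 1415 in the WT cortex, and 1415 and 1428 in the 5 × FAD cortex. The 5 × FAD means were higher by 10.7 loci in the hippocampus (p = 0.2) and by 9.67 in the cortex (p = 0.3), and the regions differed by -6.17 loci (p = 0.234), all by exact permutation tests. None of these differences passed 0.05. The regional test again treated both regions of a mouse as separate samples.

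**Figure D2:**
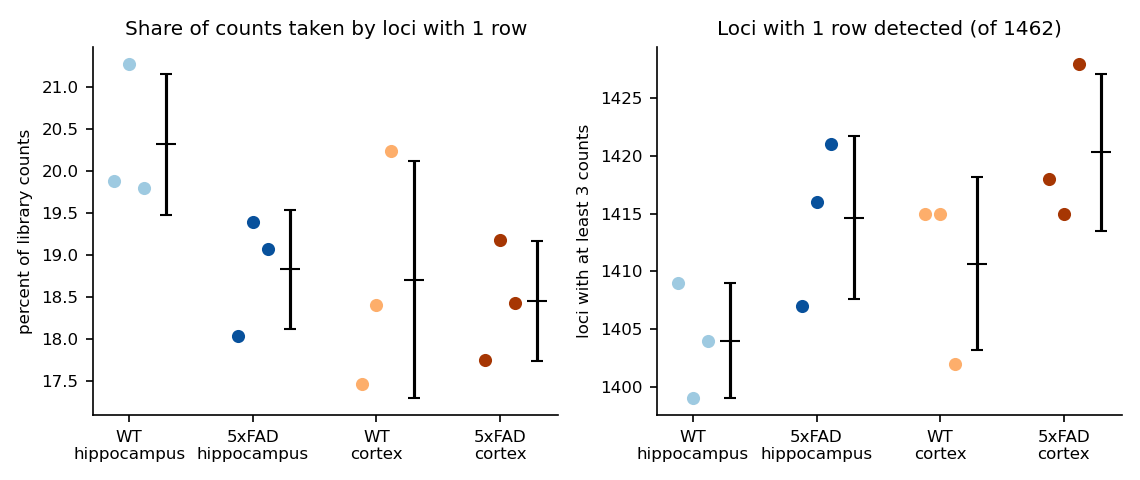
Percent of library counts taken by the loci with 1 row (left) and number of these loci with at least 3 counts (right), for the 3 libraries of each group; points are libraries, and bars are the mean and SD. The axes do not start at 0. The WT hippocampus libraries lie between 19.8% and 21.3%, above the 5 × FAD hippocampus libraries at 18.0% to 19.4%, and the cortex groups overlap.

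Region was the contrast in which these loci differed most often. Of the 1462 loci, 1425 passed the filter on low counts, and the 37 that did not had a median level of 2.47 CPM. With a Benjamini-Hochberg adjustment over all 24632 transcripts tested, 189 of the 1425 loci (13.3%) differed between hippocampus and cortex, against 2.55% of all transcripts. In total 112 were higher in the hippocampus (7.86%, against 1.4% of all transcripts) and 77 were higher in the cortex (5.4%, against 1.15%). The share called was 4.57% for transcripts of loci with more rows and 1.79% for Ensembl rows, sets that also differed in abundance and spread as given above. Among loci with 1 row, 14.3% of those with an identifier ending in 1 and 9.75% of those with a higher last number were called. At an unadjusted p under 0.05 there were 477 loci (33.5%, against 14.3% of all transcripts). Over all 1425 loci the median log2 fold change was 0.05, against a median of 0.00 over all transcripts.

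The called differences were mostly moderate. Their median log2 fold change was 0.88 for loci higher in the hippocampus and -1.21 for loci higher in the cortex, and 44 and 49 loci exceeded a 2-fold difference. The 6 hippocampus libraries did not overlap the 6 cortex libraries for 91 of the 112 and 66 of the 77. Over all loci tested, called or not, 115 (8.07%) did not overlap with the hippocampus higher and 88 (6.18%) with the cortex higher, against 1.6% and 1.4% of all transcripts. Within the fit, 78 loci were called from the WT libraries (5.47%, against 0.881% of all transcripts) and 55 from the 5 × FAD libraries (3.86%, against 0.65%), with the spread estimated from all 12. Fitted on their own, the 6 WT libraries gave 73 calls and the 6 of 5 × FAD gave 1. Over all transcripts these fits called 217 of 22007 and 4 of 22016, so calls were few in 5 × FAD alone throughout the table.

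Both regions of a mouse entered this fit as separate samples, since the labels do not state which libraries share a mouse. With the replicate number as a block, 71 loci were called, all of them among the 189, and 205 of 24632 transcripts in all. The number of calls depended on which libraries entered. It was 30 in the 8 libraries with Y-linked counts, 28 of which were among the 189, and 123 without both libraries of 5 × FAD number 1. Over all transcripts, 117 of 27506 and 401 of 25611 were called in these 2 subsets. Bulk counts cannot tell fewer cells of a type from less RNA per cell. Markers of tissue next to the 2 regions also differed. The striatal list averaged 123 CPM in the hippocampus and 403 CPM in the cortex, with 3 of its 6 genes having rows. The choroid plexus list averaged 27.5 and 4.34 CPM, with 2 of 6 genes having rows. All choroid plexus counts were of Kl, since Folr1 was at 0 in every library, and nearly all striatal counts were of Ppp1r1b. Per library these lists ranged from 54.3 to 235 CPM and from 6.81 to 47.5 CPM in the hippocampus, and from 217 to 512 CPM and from 1.63 to 10.8 CPM in the cortex. Their part in the regional differences was not tested.

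The largest hippocampus-higher differences belonged to loci with consecutive numbers. MSTRG.2545.1 had 2267, 2869 and 2069 counts in the WT hippocampus and 1371, 1776 and 1920 in the 5 × FAD hippocampus, against 222, 349 and 186 in the WT cortex and 272, 185 and 418 in the 5 × FAD cortex. Every hippocampus library was above every cortex library, and the log2 fold change was 2.84 (SE 0.197, adjusted p = 0.000242). MSTRG.2546.1 had between 550 and 943 counts in the hippocampus and between 60 and 154 in the cortex, and its log2 fold change of 3.03 (SE 0.238, adjusted p = 0.000299) was the largest of the loci whose regions did not overlap. MSTRG.2544.5 had between 961 and 2476 counts in the hippocampus and between 176 and 402 in the cortex (log2 fold change 2.67, SE 0.194, adjusted p = 0.000299). These 3 loci kept their calls in all alternatives except the 6 libraries of 5 × FAD alone, where their adjusted p-values were 0.0967, 0.11 and 0.13.

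Other hippocampus-higher loci stood alone or in other places of the numbering. MSTRG.6352.1 had between 249 and 605 counts in the hippocampus and between 48 and 111 in the cortex (log2 2.43, adjusted p = 0.000343). MSTRG.6621.13 had between 445 and 766 counts in the hippocampus and between 74 and 159 in the cortex (log2 2.31, adjusted p = 0.000299). MSTRG.4636.1 had between 414 and 737 counts in the hippocampus and between 111 and 204 in the cortex (log2 1.84, adjusted p = 0.000729). For each of these loci the lowest hippocampus library was above the highest cortex library. MSTRG.7695.1 was the least abundant of those named in this direction, with 215, 191 and 177 counts in the WT hippocampus, 87, 118 and 62 in the 5 × FAD hippocampus and between 28 and 47 in the cortex (log2 1.71, SE 0.217, adjusted p = 0.0023). MSTRG.13387.1 had between 107 and 304 counts in the hippocampus and between 35 and 79 in the cortex (log2 1.77, adjusted p = 0.00108). MSTRG.7695.1, MSTRG.13387.1 and MSTRG.6352.1 lost their calls in the 8 libraries with Y-linked counts, with adjusted p = 0.0834 for MSTRG.7695.1 0.0629 for MSTRG.13387.1 and 0.051 for MSTRG.6352.1, while their log2 fold changes there were 1.64, 1.85 and 2.42. In the 5 × FAD libraries alone none of these 3 was called, and neither were MSTRG.6621.13 (log2 2.05, adjusted p = 0.132) and MSTRG.4636.1 (log2 1.94, adjusted p = 0.119).

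In the other direction, the 2 largest differences among loci whose regions did not overlap were at loci with few counts. MSTRG.3598.1 was at 0 in all 3 WT hippocampus libraries and had 4, 2 and 4 counts in the 5 × FAD hippocampus, against 11, 9 and 6 in the WT cortex and 28, 25 and 7 in the 5 × FAD cortex. MSTRG.8050.6 had 6 or fewer counts in each hippocampus library and between 15 and 54 in the cortex. Their log2 fold changes were -4.36 (SE 0.614, adjusted p = 0.00798) and -3.59 (SE 0.665, adjusted p = 0.0177), and both calls were lost in the 8 libraries with Y-linked counts (adjusted p = 0.247 and 0.369) and without both libraries of 5 × FAD number 1 (0.0562 and 0.102). That of MSTRG.8050.6 was also lost without WT hippocampus 3 (0.0507) or without WT cortex 1 (0.051). With the replicate number as a block neither MSTRG.3598.1 nor MSTRG.8050.6 was called (edgeR adjusted p = 0.137 for both). MSTRG.749.3, chosen after its values were seen, had the largest called difference of all (log2 -6.46, adjusted p = 0.028) although its regions overlapped: it had 2 counts in WT hippocampus 2 and none in the other hippocampus libraries, 49, 50 and 33 in the WT cortex, and 44, 1 and 4 in the 5 × FAD cortex.

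MSTRG.2124.1 was a steadier cortex-higher locus. It had 137, 162 and 109 counts in the WT hippocampus and 56, 114 and 97 in the 5 × FAD hippocampus, against 376, 377 and 425 in the WT cortex and 288, 339 and 270 in the 5 × FAD cortex. All cortex libraries were above all hippocampus libraries (log2 fold change -1.74, SE 0.202, adjusted p = 0.00141). In the 8 libraries with Y-linked counts the log2 fold change was -1.55 and did not pass (adjusted p = 0.0673).

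The other cortex-higher loci named by size were close in number: MSTRG.653.1, MSTRG.656.5, MSTRG.657.1, MSTRG.661.1 and MSTRG.664.2. MSTRG.656.5, the most abundant of them, had 252, 374 and 337 counts in the WT hippocampus and 82, 365 and 329 in the 5 × FAD hippocampus, against 922, 874 and 1076 in the WT cortex and 1091, 990 and 627 in the 5 × FAD cortex. Its log2 fold change was -1.79 (SE 0.335, adjusted p = 0.0188), and those of the other 4 lay between -1.90 for MSTRG.653.1 and -1.74 for MSTRG.661.1, with adjusted p-values between 0.0176 and 0.0284. In all 5 loci the library of 5 × FAD hippocampus 1 was the lowest, with 12 counts of MSTRG.653.1 and 55 of MSTRG.657.1. Their calls were near the threshold, and with the replicate number as a block none of the 5 was called (edgeR adjusted p from 0.0993 to 0.123). In MSTRG.656.5 the adjusted p rose to between 0.0505 and 0.0601 without any single one of WT hippocampus 1, 2 or 3, WT cortex 3, or 5 × FAD cortex 1 or 2, and to 0.126 in the 8 libraries with Y-linked counts. MSTRG.653.1, MSTRG.657.1 and MSTRG.664.2 lost their calls without any of the same libraries or without WT cortex 1, and MSTRG.661.1 without any WT hippocampus library or 5 × FAD cortex 2.

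Loci called for region clustered by locus number. The following grouping was chosen after the values were seen: called loci of one direction were joined when their numbers were at most 5 apart, and groups of at least 4 were kept. There were 11 such runs, 7 higher in the hippocampus and 4 higher in the cortex, holding 69 of the 189 called loci (36.5%). The definition fixes the sign of these 69, and 3 further loci that were tested lay within the runs without being called.

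The run from 650 to 665, higher in the cortex, held 11 loci, all called, with log2 fold changes from -1.90 to -1.04. Summed over its loci it had 2197, 2550 and 2101 counts in the WT hippocampus, 1041, 2694 and 2050 in the 5 × FAD hippocampus, 6060, 5245 and 7255 in the WT cortex, and 7155, 6796 and 4078 in the 5 × FAD cortex. The lowest cortex library was above the highest hippocampus library. The run from 16064 to 16088, also higher in the cortex, held 14 loci, 13 of them called, with log2 fold changes from -1.73 to -1.41. Its summed level was between 445 and 738 CPM in the hippocampus and between 1500 and 2176 CPM in the cortex. The locus of this run that was not called, MSTRG.16085.1, was at 0 in WT hippocampus 1 and in WT cortex 1 and had between 53 and 426 counts elsewhere.

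Among the hippocampus-higher runs, that from 6603 to 6612 held 8 loci, all called, all with an identifier ending in 1, and all with log2 fold changes between 0.93 and 1.12. Its summed counts were between 7313 and 16712 in the hippocampus and between 4662 and 6977 in the cortex. The run from 13387 to 13392 held 6 called loci with log2 fold changes from 1.42 to 1.77, at 519 to 766 CPM in the hippocampus and 191 to 239 CPM in the cortex. That from 11877 to 11882 held 4 called loci, among them both region-dependent loci of the top 10, and summed to between 17156 and 32477 counts in the hippocampus and between 9644 and 13234 in the cortex. Loci of these runs differed between regions by similar amounts.

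Similarity by number held beyond the called loci. Over 408 pairs of tested loci whose numbers were 1 apart, the regional log2 fold changes had a Pearson correlation of 0.775, and 359 pairs (88.0%) had the same sign. At 10 apart the correlation was 0.198 over 157 pairs, and at 100 apart it was -0.0866 over 110 pairs with 49.1% of the same sign. For genotype the correlation at 1 apart was 0.297 within hippocampus libraries and 0.301 within cortex libraries. The pairs share their libraries and a locus can enter more than 1 pair, so these values are descriptions. The table holds no positions, and whether loci of neighbouring number lie next to each other in the genome was not tested.

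**Figure D3:**
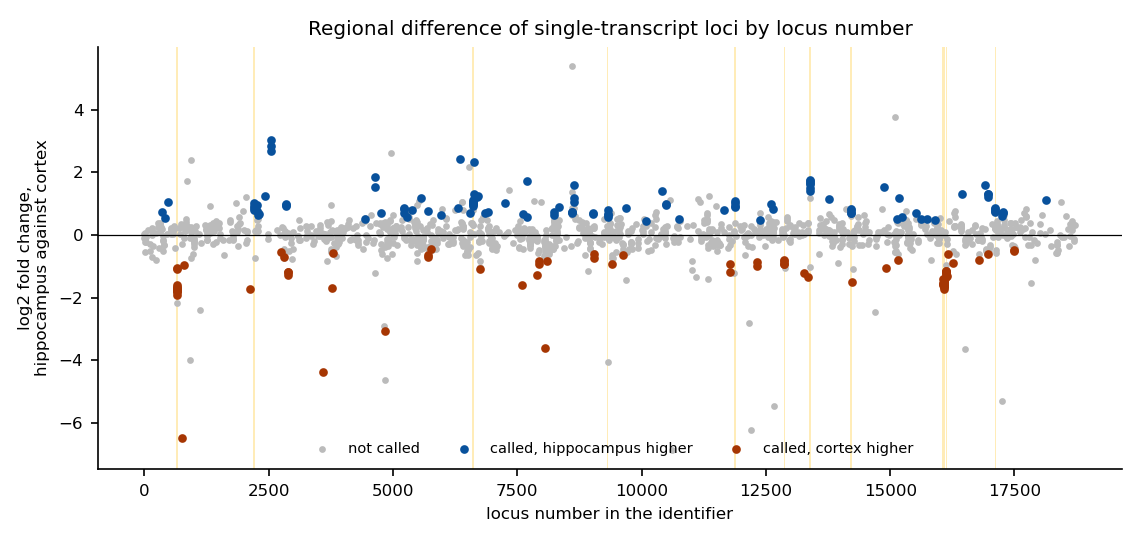
Log2 fold change between hippocampus and cortex (y axis, positive where the hippocampus was higher) of the 1425 loci tested, by the locus number in the identifier (x axis). Blue and brown points are the 112 and 77 loci called at an adjusted p under 0.05, grey points were not called, and yellow bands mark the 11 runs of called loci of neighbouring number, in which the called points share a sign by definition.

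Between genotypes few loci differed. In the hippocampus edgeR called 0 of the 1393 loci tested, against 0.0183% of all transcripts (4 of 21894). DESeq2 called 8, of which 6 were higher and 2 lower in 5 × FAD. It called 127 of the 21894 transcripts in all, a share similar to that of these loci. At an unadjusted p under 0.05 there were 102 loci (7.32%, against 7.58% of all transcripts), 27 higher and 75 lower. In the cortex edgeR called 1 of 1404 loci, against 0.0545% of all transcripts. DESeq2 called 4 loci there and 102 of 21999 transcripts in all, so its share was lower among these loci. The locus called by edgeR was lower in 5 × FAD, a direction with 0.0227% of all transcripts. At an unadjusted p under 0.05 there were 62 loci (4.42%, against 5.34%), 37 higher and 25 lower.

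The hippocampal values leaned towards lower levels in 5 × FAD. Of the 1393 loci, 919 had a log2 fold change below 0 and 474 above, with a median of -0.13 against 0.02 over all transcripts tested, and the share of counts given above was lower too. Transcripts of loci with more rows leaned the same way, with a median of -0.20 and a mean share of 18.4% in the WT and 16.6% in the 5 × FAD hippocampus, so the lean was not particular to loci with 1 row. Among the 1420 loci with a mean of at least 10 counts, the median log2 ratio of group means was -0.14 with TMM or DESeq2 scaling and -0.07 by library size alone, where that of all transcripts was 0.08. The direction thus held under each scaling. In the cortex 721 were below 0 and 683 above, with a median of -0.01. Some glial markers also differed. The summed level of 5 astrocyte markers with rows ranged from 519 to 1215 CPM in the 5 × FAD hippocampus and from 1336 to 1486 CPM in the WT hippocampus. Most of that sum was Slc1a3, a glial glutamate transporter, with 2042, 1808 and 4256 counts in 5 × FAD and 6712, 6110 and 5908 in WT. Gja1, a gap junction gene of astrocytes, had 123, 93 and 100 counts against 93, 92 and 115, and Gfap had at most 7 in any of these libraries. Trem2, a microglial receptor, had 714, 809 and 164 counts in the 5 × FAD hippocampus and 129, 91 and 142 in WT. The summed level of 5 oligodendrocyte markers with rows ranged from 496 to 599 CPM in the 5 × FAD hippocampus and from 344 to 422 CPM in WT. In the cortex it ranged from 546 to 618 CPM in 5 × FAD and from 298 to 482 CPM in WT. Cnp was the largest part of this sum, and in the hippocampus the counts of each of these genes overlapped between genotypes. The part of these cell types in the result was not tested.

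In all, 3 loci were seen in 5 × FAD libraries only, as the plot of counts per library shows. MSTRG.11359.1 had 93, 51 and 58 counts in the 5 × FAD hippocampus and 26, 40 and 63 in the 5 × FAD cortex, against 1 count in WT hippocampus 1 and 0 in the other 5 WT libraries. MSTRG.14838.1 had 47, 27 and 58 counts in the 5 × FAD hippocampus and 30, 39 and 82 in the 5 × FAD cortex, against 1 count in WT hippocampus 3 and 0 in the other WT libraries. MSTRG.5009.1 had 18, 22 and 28 counts in the 5 × FAD hippocampus and 46, 25 and 105 in the 5 × FAD cortex, against 2 counts in WT hippocampus 1 and 0 in the other WT libraries. For all 3, each 5 × FAD library was above each WT library in both regions, including 5 × FAD number 3, which had Y-linked counts like the WT libraries. No locus of the set was detected in all WT libraries and in no 5 × FAD library, or in all libraries of 1 region and none of the other. Of the other rows, 2 of 974 and 5 of 45597 had this 5 × FAD pattern.

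In the separate fits of each region these loci had the smallest p-values of those higher in 5 × FAD but did not pass the adjustment. MSTRG.11359.1 had adjusted p = 0.0658 in the hippocampus and 0.297 in the cortex, MSTRG.14838.1 had 0.121 and 0.31, and MSTRG.5009.1 had 0.288 and 0.422. In the hippocampus the ratio of 5 × FAD to WT was 222 for MSTRG.11359.1, with an exact 95% counting interval from 39.5 to 8828, 145 for MSTRG.14838.1 (25.6 to 5784) and 37.4 for MSTRG.5009.1 (9.97 to 315). In the cortex, where WT was at 0, they were at least 14.0-fold, 16.3-fold and 18.5-fold higher against a floor of 3 counts in each library. These intervals and floors cover counting error only.

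Both regions were then combined, an alternative added after these values were seen. The mean genotype contrast over the 12 libraries called 3 of 1425 loci, against 0.0447% of all transcripts (0.0325% higher in 5 × FAD), and they were these: MSTRG.11359.1 (adjusted p = 0.00526), MSTRG.14838.1 (0.00822) and MSTRG.5009.1 (0.0259). This fit counts both regions of a mouse as separate samples. With the counts of both regions summed by library number, which leaves 3 sums a genotype, 3 loci were called again, all higher in 5 × FAD (against 0.048% of all transcripts, and 0.0296% in that direction). MSTRG.11359.1 (adjusted p = 0.0173) and MSTRG.14838.1 (0.0444) were among them, MSTRG.5009.1 was not (0.141), and the third was MSTRG.5883.4 (0.0342). MSTRG.5883.4 had 60, 111 and 103 counts in the WT hippocampus, 699, 622 and 117 in the 5 × FAD hippocampus, 182, 178 and 123 in the WT cortex, and 183, 133 and 625 in the 5 × FAD cortex. It was thus high in 2 hippocampus libraries and in the cortex library of another number, and the genotypes overlapped in both regions. All 3 loci seen only in 5 × FAD were also called by DESeq2 within each region, at adjusted p-values of 0.00646 or less.

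The locus called in the cortex, MSTRG.8598.3, was higher in WT there. It had 2873, 3145 and 2030 counts in the WT cortex and 0 in all 3 libraries of the 5 × FAD cortex, which is at least 896-fold lower (adjusted p = 0.00555). In the hippocampus WT 1 had 2336 counts of it and the other WT libraries 0, while 5 × FAD 2 and 3 had 1285 and 1216 and 5 × FAD 1 had 0, so that it was on or off in libraries of either genotype and the groups overlapped. The edgeR call was lost without any one of the WT cortex libraries 1, 2 and 3 (adjusted p = 0.0664, 0.0647 and 0.0561). It was also lost in the fit of all 12 libraries (0.898). In the cortex libraries with Y-linked counts, where 5 × FAD has only number 3, the log2 fold change of MSTRG.8598.3 was -14.4. Its log2 ratio was 0.25 in the hippocampus (adjusted p = 0.986).

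Among the other loci lower in 5 × FAD, MSTRG.2277.1 was 1 of the 3 of smallest p in the hippocampus, and in the cortex it came after MSTRG.8598.3, MSTRG.6216.9 and MSTRG.15184.1. It had 1235, 1219 and 1053 counts in the WT hippocampus and 421, 528 and 634 in the 5 × FAD hippocampus, with 607, 652 and 515 in the WT cortex and 520, 295 and 365 in the 5 × FAD cortex. The groups did not overlap in the hippocampus. Its log2 fold change was -0.99 in the hippocampus (SE 0.208, adjusted p = 0.511) and -0.63 in the cortex (SE 0.191, adjusted p = 0.851), neither of which passed the edgeR test. DESeq2 called it in the hippocampus (adjusted p = 0.0273). MSTRG.14914.5 had 58, 52 and 37 counts in the WT hippocampus and 17, 14 and 17 in the 5 × FAD hippocampus, with between 36 and 87 in the cortex (log2 fold change -1.45 in the hippocampus, adjusted p = 0.511). MSTRG.17832.1 had 171, 113 and 150 counts in the WT hippocampus and 36, 49 and 63 in the 5 × FAD hippocampus (log2 -1.40, adjusted p = 0.511 by edgeR and 0.0383 by DESeq2). In MSTRG.14914.5 and MSTRG.17832.1 the 3 libraries of the 5 × FAD hippocampus were the lowest of all 12, and the cortex values of MSTRG.17832.1 were between 82 and 123. In the cortex MSTRG.6216.9 (log2 -0.92, adjusted p = 0.732) and MSTRG.15184.1 (log2 -0.86, adjusted p = 0.778) had the smallest p-values after MSTRG.8598.3 and did not pass.

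Over both regions, 6 of the 1425 loci had all 6 5 × FAD libraries above all 6 WT libraries on the TMM scale (0.421%, against 0.276% of all transcripts) and 8 had them below (0.561%, against 0.313%). The first included the 3 loci seen only in 5 × FAD. Besides those, MSTRG.9004.1, chosen from these 6 after its values were seen, had between 113 and 121 counts in the WT hippocampus, between 119 and 193 in the 5 × FAD hippocampus, between 79 and 130 in the WT cortex and between 141 and 215 in the 5 × FAD cortex. In CPM it was between 19.1 and 28.6 in WT and between 30.0 and 48.3 in 5 × FAD. Among the 8, MSTRG.15975.10, the second most abundant locus of the set, was between 2178 and 2889 CPM in WT and between 1268 and 2166 CPM in 5 × FAD. Its adjusted p was 0.675 in the hippocampus, against 0.913 in the cortex.

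The effect of genotype was compared between regions as an interaction. edgeR called 0 of the 1425 loci, against 0.00812% of all transcripts. DESeq2 called 5 loci and 108 of 24632 transcripts in all, so its share was lower among these loci. At an unadjusted p under 0.05 there were 105 loci (7.37%, against 6.89%), with 18 above 0 and 87 below. MSTRG.5594.2 had the smallest p. It had 168, 157 and 132 counts in the WT hippocampus and 236, 195 and 238 in the 5 × FAD hippocampus, but 215, 234 and 214 in the WT cortex and 168, 141 and 177 in the 5 × FAD cortex. The order of the genotypes was opposite in the 2 regions without overlap in either, and the difference of log2 fold changes was 1.18 (SE 0.236, adjusted p = 0.556 by edgeR and 0.00291 by DESeq2). MSTRG.7933.1 followed, with 97, 116 and 83 counts in the WT hippocampus, 48, 49 and 45 in the 5 × FAD hippocampus, and between 101 and 146 in the cortex (difference -1.05, SE 0.231, adjusted p = 0.6). Neither passed the adjustment in edgeR.

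**Figure D4:**
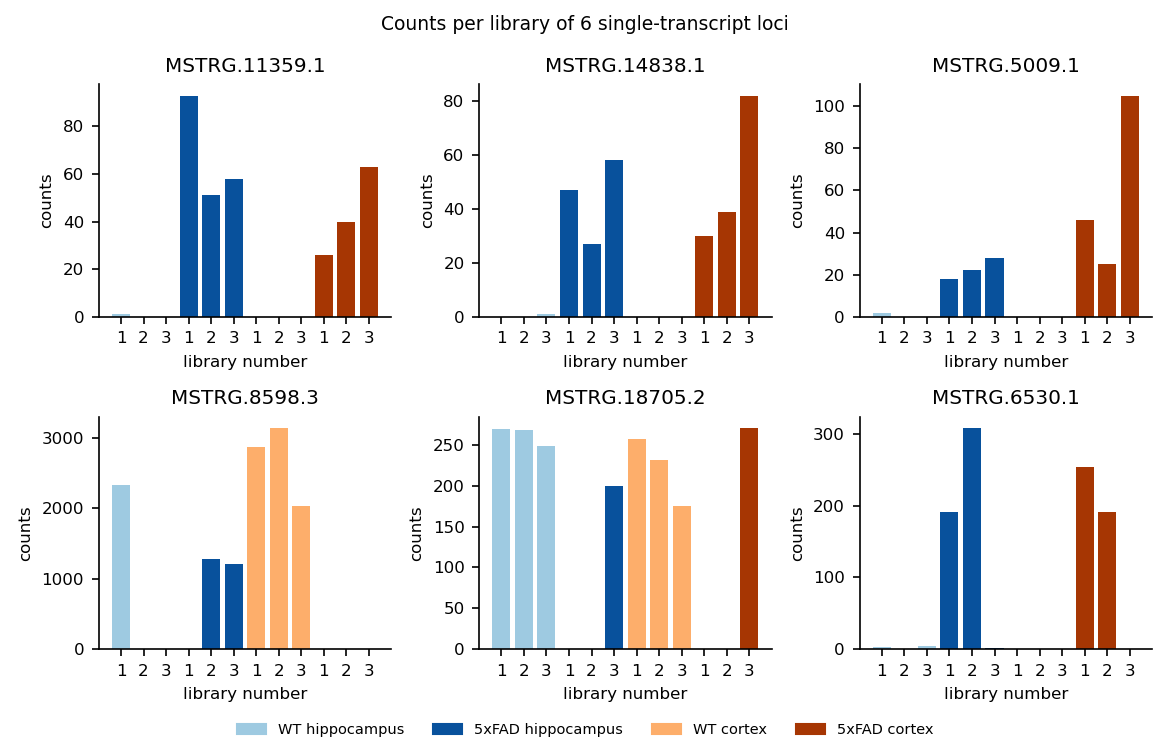
Counts per library (y axis, each panel from 0 with its own scale) of 6 loci in the 3 numbered libraries of each group, coloured by group. MSTRG.11359.1, MSTRG.14838.1 and MSTRG.5009.1 have bars in all 5 × FAD libraries and at most 2 counts in WT, MSTRG.8598.3 is on in some libraries of either genotype, and MSTRG.18705.2 and MSTRG.6530.1 divide 5 × FAD number 3 from numbers 1 and 2.

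Some loci were all-or-none within a region, which is defined here as at least 100 counts in some of its 6 libraries and at most 3 in all the others. In each region 29 of the 1462 loci (1.98%) met this, 43 in either region and 15 in both. Over all rows of the table the share was 0.718% in the hippocampus, against 0.700% in the cortex. It was 23.4% and 22.4% for transcripts of loci with more rows and 0.193% and 0.195% for Ensembl rows, a smaller share of which reached 100 counts in any library of a region. Of the 43 loci, 26 had an identifier ending in 2 or more. In the hippocampus 11 were on in a single library and 9 were off in a single library, and in the cortex 8 and 6.

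Over all 12 libraries, 15 loci were on in exactly 1 and at most 3 counts elsewhere, 14 of them with an identifier ending in 2 or more. MSTRG.17796.7, with 1718 counts in 5 × FAD hippocampus 3 and 0 in the other 11 libraries, was the highest of these and is named after its values were seen. Conversely 4 loci were off in exactly 1 library, all with an identifier ending in 1. MSTRG.4887.1 had 0 counts in WT hippocampus 1 and between 130 and 2174 in the others, and MSTRG.13394.1 had 0 in 5 × FAD hippocampus 3 and between 300 and 1603 in the others. For all 4 loci the library at 0 was a hippocampus library, namely WT 1 or 3 or 5 × FAD 1 or 3. MSTRG.17152.1 was off in WT hippocampus 3 and WT cortex 2 and had between 1609 and 3510 counts in the rest. These loci too were named after their values were seen.

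Of the 15 loci that were all-or-none in both regions, 3 were on in the libraries of the same genotype and number in both. MSTRG.16327.2 had 141 and 266 counts in 5 × FAD hippocampus 1 and 3, 176 and 375 in 5 × FAD cortex 1 and 3, and at most 1 in the other 8 libraries. MSTRG.7146.3 had 374 counts in 5 × FAD hippocampus 3 and 251 in 5 × FAD cortex 3 and 0 elsewhere. MSTRG.18705.2 had 269, 268 and 249 counts in the WT hippocampus, 257, 231 and 175 in the WT cortex, 200 and 271 in 5 × FAD number 3, and 0 in the 4 libraries of 5 × FAD numbers 1 and 2. It was thus on in the 8 libraries with Y-linked counts and off in the 4 without, the only locus of the set to meet that definition. MSTRG.6530.1, named after its values were seen, had the opposite order: 192 and 309 counts in 5 × FAD hippocampus 1 and 2, 254 and 191 in 5 × FAD cortex 1 and 2, and at most 4 in the other 8. Whether the same number marks the same mouse in both regions is not stated in the labels. In the other 12 loci different libraries were on in the 2 regions.

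**Figure D5:**
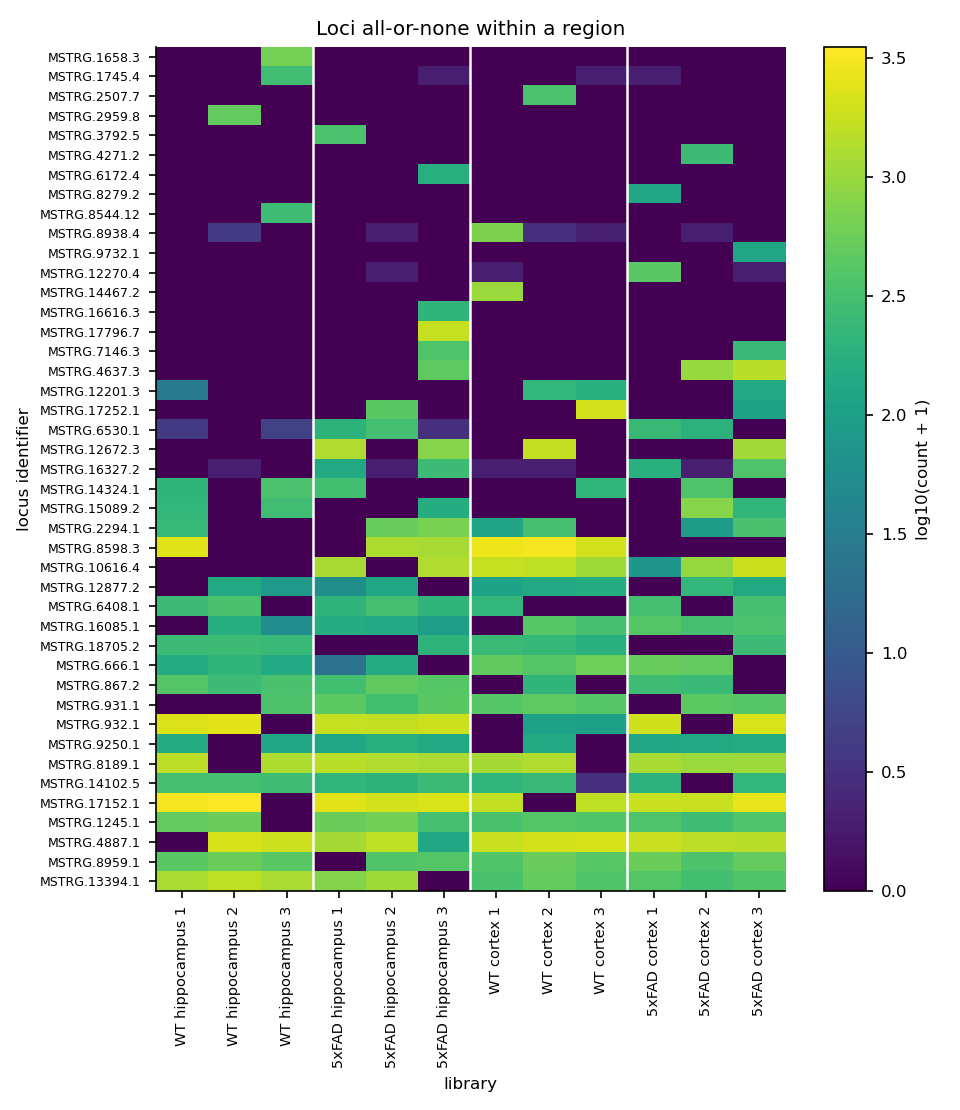
Counts of the 43 loci that were all-or-none in at least 1 region, as log10(count + 1) in colour, with loci as rows sorted by the number of libraries with at least 100 counts and the 12 libraries as columns in their 4 groups (white lines). The upper rows are on in 1 library and the lowest rows are off in 1, and the libraries concerned differ from locus to locus.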

How the data were processed

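RNA of the hippocampus and cortex was depleted of ribosomal RNA and made into stranded libraries, and the authors deposited a table of raw counts per long non-coding transcript. For its circRNA sequencing the paper also states that linear RNA was removed with RNase R. Whether that step applied to the libraries counted here was not established. The submitters' processing notes name Trimmomatic 0.36 and edgeR. The aligner, assembler, counter and genome build are not given in the sources used here. All 12 columns were used, and 0 columns were left out. Fold changes or p-values of the study were not used.

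Groups and numbers were read from the labels. The test of the counts was the quasi-likelihood test of edgeR 4.0.16 under R 4.3.3 (filterByExpr, TMM, glmQLFit and glmQLFTest with default settings) on the whole table, with Benjamini-Hochberg adjustment at 0.05, and only rows of the set are printed. Region and interaction used a fit of all 12 libraries, and genotype the 6 libraries of a region. The SE of a log2 fold change was derived from its F statistic. CPM used library totals. The test was tried on simulated counts. Shares and numbers of loci were compared by two-sided exact permutation tests (Python 3.11.15, scipy 1.17.1). These permuted libraries without pairing the regions of a mouse. Depth, from 3517967 to 5014389 counts, limits loci of few counts.

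The members and lists were chosen with earlier results of these data known. Named loci were the 10 of highest level; up to 8 per direction with the largest regional change among called loci without overlap; up to 5 per direction called for genotype, or else the 3 of smallest p; 2 for the interaction; loci all-or-none in the same libraries of both regions; and loci dividing libraries by Y-linked counts. Alternatives were DESeq2 size factors, library size only, DESeq2 1.42.0, 2 filters, a robust fit, a block for the replicate number, subsets of libraries, and leaving out each library. Both regions combined, leaving out 5 × FAD number 1, and runs of numbers were added after the data were seen.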

Additional observations from a re-analysis of the deposited data

How the results depend on the processing

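For region, 189 loci were called and alternatives gave 305 (DESeq2), 30 (libraries with Y-linked counts), 73 (WT only), 1 (5 × FAD only), 123 (without both libraries of 5 × FAD number 1) and 111 to 218 with 1 library left out; the lowest were without WT hippocampus 2 (111) or 3 (118), WT cortex 1 (121), or 5 × FAD cortex 1 (122) or 2 (120). Subsets hold fewer samples. The libraries with Y-linked counts hold a single 5 × FAD library per region, so their calls for genotype and for the interaction are not given. Region calls over all transcripts moved as well, from 628 to 1378 with DESeq2 and 117 in the libraries with Y-linked counts. They were 217 in WT only and 4 in 5 × FAD only. For genotype in the hippocampus, 0 became 8 (DESeq2), and 3 and 3 (both regions as a mean or summed). With 1 library left out it was 0 to 2, the 2 without 5 × FAD hippocampus 3. In the cortex, 1 became 4 (DESeq2), 0 (at least 10 counts in every library, or all 12 libraries in one fit), and 3 and 3 (both regions). With 1 library left out it was 0 to 2: 0 without any WT cortex library and 2 without 5 × FAD cortex 3. The interaction went from 0 to 5 (DESeq2) and to 0 to 1 with 1 library left out, the 1 without 5 × FAD hippocampus 3. The cause was not tested.

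The replicate number as a block gave 71 loci for region, 0 for genotype in the hippocampus, 0 in the cortex and 0 for the interaction. For genotype the block joined WT and 5 × FAD libraries of the same number. Those are different mice, so the genotype counts under this block are not a check on pairing. MSTRG.3598.1, MSTRG.8050.6, MSTRG.653.1, MSTRG.656.5, MSTRG.657.1, MSTRG.661.1 and MSTRG.664.2 were then not called for region (adjusted p from 0.0993 to 0.137), nor MSTRG.8598.3 for genotype in the cortex (0.644). Deviations of same-numbered libraries of the 2 regions were correlated over 1425 loci. In 5 × FAD the values for numbers 1, 2 and 3 were 0.119, 0.0996 and 0.405, and different numbers gave -0.297 to 0.21. In WT they were 0.0818, -0.202 and -0.0999, and different numbers gave -0.109 to 0.229. Same-numbered values were thus positive in 5 × FAD and mixed in WT, and this measure did not settle whether a number marks a mouse. In 5 × FAD only number 3 had Y-linked counts, 1074 in the hippocampus and 1276 in the cortex. If both regions were taken from each mouse, as stated, these 2 libraries came from the same mouse.

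The genotype difference in the share of counts lay between -1.76 and -1.0 points in the hippocampus and between -0.876 and 0.514 in the cortex with 1 library left out, turning positive without 5 × FAD cortex 1 (0.0959) or WT cortex 3 (0.514); the regional one lay between 0.656 and 1.33. Detected loci differed by -8.87 to -3.67 for region, 7.5 to 14.5 for genotype in the hippocampus and 5.33 to 12.3 in the cortex. All-or-none loci numbered 23 to 28 and 25 to 30.

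Of the values of named loci under alternatives, 766 kept direction and side of the threshold, 86 lost a call, 20 gained one and 17 changed sign, all 17 of loci not called. MSTRG.15975.10 gave 0.103 (libraries with Y-linked counts), 0.0296 (WT only), 0.0389 (without 5 × FAD number 1) and -0.144 to 0.0262 with 1 library left out. MSTRG.16092.5 gave -0.0291 (library size), -0.00393 (at least 10 counts in every library), -0.130 (libraries with Y-linked counts), -0.124 (5 × FAD only), -0.00520 (without 5 × FAD number 1) and -0.0364 to 0.0583 with 1 library left out. MSTRG.18705.2 gave 0.0798 (WT only) and -4.68 to 4.61 with 1 library left out, the lowest without 5 × FAD hippocampus 3 and the highest without 5 × FAD cortex 3.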
